A study of Caenorhabditis elegans with 2 samples.

Results

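The peaks described here are the DAF-19::EGFP peaks of the piRNA clusters on Caenorhabditis elegans chromosome IV. They were chosen by position and by reproducibility, as the peaks whose summit lies at 4.5 to 7 Mb (the left cluster) or 13.5 to 17.2 Mb (the right cluster) and whose irreproducible discovery rate (IDR) is at most 0.1, a value of at least 1 as −log10. Such peaks are called peaks below. There were 278 of them, 154 in the left cluster and 124 in the right, among 5882 called peaks genome-wide. The genome-wide list ranks 117986 peaks, and 4.99% of these were called.

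The study has 1 group, sampled as 2 biological replicates, and no other condition. They were whole L4 larvae of strain OP794, aged 48 hours and synchronised as starved L1 animals after bleaching. The strain carries wgIs794, a daf-19 transgene tagged with TY1, EGFP and 3xFLAG, together with unc-119(+), in an unc-119(tm4063) mutant background that both replicates share. Chromatin fragments of 200 to 800 bp, made by sonication, were pulled down through the EGFP tag. The files hold peaks and no reads, so the depth of each replicate is unknown. In whole animals, a site bound in few cells and a site bound weakly in many cannot be told apart, and the cells that made the tagged protein were not measured. Positions are on ce11 (WBcel235).

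As background, piRNAs of C. elegans, also called 21U-RNAs, are short germline RNAs bound by the Argonaute PRG-1, which scans transcripts for foreign sequence such as transposons. Most of their genes lie in a pair of broad clusters on chromosome IV. Each is a small transcription unit of its own, read by RNA polymerase II, and many have a motif upstream, the Ruby motif, with the core CTGTTTCA. DAF-19 is an RFX transcription factor known for driving the genes of sensory cilia in neurons. The same clusters also hold ordinary protein-coding genes, tRNA genes and pseudogenes.

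The sequences that follow show the piRNA genes closest to a called summit, 6 of them because the last 2 lie at the same distance. They were chosen as the places where a called peak and a piRNA gene coincide. Each line is read from the WBcel235 genome on the strand of the gene, 5′ to 3′ (plus for 21ur-2895 and minus for the others), as 60 bases upstream and then the 21-base piRNA gene in capitals. The motif core is in capitals too where it starts 21 to 60 bp upstream of the gene.
21ur-4716 (IV:16016933-16017013): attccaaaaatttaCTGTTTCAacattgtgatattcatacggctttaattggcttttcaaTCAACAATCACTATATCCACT
21ur-3654 (IV:17049123-17049203): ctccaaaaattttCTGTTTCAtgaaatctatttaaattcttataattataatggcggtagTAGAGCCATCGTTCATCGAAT
21ur-1623 (IV:14893650-14893730): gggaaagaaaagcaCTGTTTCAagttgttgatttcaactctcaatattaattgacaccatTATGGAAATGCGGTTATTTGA
21ur-5916 (IV:17197765-17197845): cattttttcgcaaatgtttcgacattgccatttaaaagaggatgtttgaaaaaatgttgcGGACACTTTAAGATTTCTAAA
21ur-11742 (IV:5625477-5625557): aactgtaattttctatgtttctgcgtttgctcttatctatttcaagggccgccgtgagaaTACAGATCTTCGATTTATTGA
21ur-2895 (IV:5839783-5839863): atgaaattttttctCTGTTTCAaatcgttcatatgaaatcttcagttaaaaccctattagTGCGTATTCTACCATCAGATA

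The core stands 46 bp upstream of 21ur-4716, 21ur-1623 and 21ur-2895 and 47 bp upstream of 21ur-3654, counted from its first base to the first base of the gene. It is not in the window of 21ur-5916 or 21ur-11742. Over all 14204 annotated piRNA genes of the clusters, 4932 (34.7%) have the core in that window, most often 46 bp upstream (1680 genes). All annotated piRNA genes of the clusters are 21 bp long and 96.2% start with T.

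The other sequences are the peak of highest signal in the clusters and the strongest peak that lies both at a tRNA gene and near a piRNA start. They are shown to set the kind of site that carried high signal beside the piRNA genes above. The first is the whole peak on the plus strand, with 21 bases around the summit in capitals, and the second is 201 bases on the plus strand, with the tRNA gene WBGene00022903 in capitals.
strongest peak (IV:4727959-4728141): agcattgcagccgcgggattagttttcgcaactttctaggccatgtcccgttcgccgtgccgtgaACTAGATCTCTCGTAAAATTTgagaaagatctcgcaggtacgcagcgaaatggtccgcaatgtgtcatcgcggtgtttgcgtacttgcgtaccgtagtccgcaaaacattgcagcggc
tRNA gene peak (IV:5967111-5967311): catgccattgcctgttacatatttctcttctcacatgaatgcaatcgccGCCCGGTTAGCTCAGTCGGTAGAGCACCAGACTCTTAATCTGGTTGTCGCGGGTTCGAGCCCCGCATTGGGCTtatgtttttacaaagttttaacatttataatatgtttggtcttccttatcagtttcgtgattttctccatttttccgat

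The clusters were rich in piRNA genes but not in called peaks. Ensembl annotates 2816 piRNA genes in the left cluster, 1126 per Mb, and 11388 in the right cluster, 3078 per Mb, against 510 on the remaining 11.3 Mb of chromosome IV, 45.2 per Mb. Called peaks numbered 61.6 per Mb in the left cluster and 33.5 per Mb in the right, against 58.6 per Mb on the rest of the chromosome, where 662 were called. The left cluster thus had 1.05 times the peak density of the rest of the chromosome with 24.9 times the piRNA gene density. The right cluster had 0.572 times the peak density with 68.2 times the piRNA gene density. Both clusters together held 44.8 called peaks per Mb, 0.765 times the density of the rest. Position chose these peaks, so the densities are a description with no test.

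Of the ranked peaks, 4.20% were called in the left cluster (95% Wilson interval 3.59 to 4.89) and 3.33% in the right cluster (2.80 to 3.96), against 5.16% on the rest of chromosome IV (4.79 to 5.55). These intervals reflect the numbers counted and nothing else, and peaks that lie close together depend on each other. Set against protein-coding genes, the regions were close. There were 32.0 called peaks per 100 protein-coding genes in the left cluster and 27.0 in the right, against 28.3 on the rest. Protein-coding genes stood at 192.8 per Mb in the left cluster and 124 per Mb in the right, against 207 per Mb on the rest.

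The deficit of called peaks against the pooled rest depended on the threshold. At an IDR value of 2 or more, an IDR of 0.01 or less that 0.844% of all ranked peaks reach, the clusters held 52 peaks, 22 in the left and 30 in the right, against 92 on the rest. That is 8.80 per Mb in the left cluster and 8.11 in the right, against 8.15 on the rest, and the ratio of both clusters to the rest became 1.03.

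**Figure D1:**
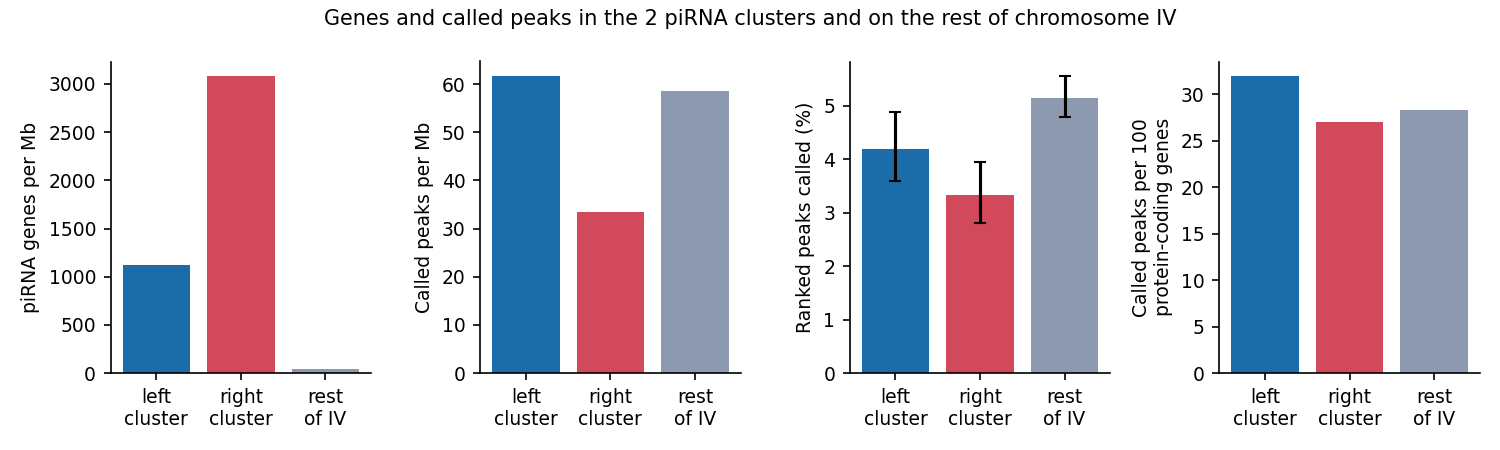
Density of genes and called peaks in the left cluster, the right cluster and the rest of chromosome IV: piRNA genes per Mb, called peaks per Mb, percent of ranked peaks called (bars are 95% Wilson intervals) and called peaks per 100 protein-coding genes. piRNA gene density runs from 45.2 to 3078 per Mb while called peaks per 100 protein-coding genes stay between 27.0 and 32.0.

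Along the clusters, called peaks were unevenly spread and did not gather where piRNA genes did. In bins of 100 kb the left cluster held 0 to 17 called peaks (median 6, mean 6.16 ± 3.53, SD over 25 bins) and the right cluster 0 to 10 (median 3, mean 3.35 ± 2.71, SD over 37 bins), against 0 to 19 on the rest (median 5.5, mean 5.88 ± 4.27, SD over 112 bins). Across the 62 bins of both clusters, Spearman's rho between called peaks and piRNA genes was −0.307, and between called peaks and protein-coding genes 0.346. piRNA genes and protein-coding genes themselves ran against each other (rho −0.652). Within a cluster the relation of called peaks to piRNA genes was weaker, with rho −0.215 over the 25 left bins and 0.0705 over the 37 right bins. These are descriptions over neighbouring bins of the same libraries. The 31 bins richest in piRNA genes held 10501 of them and 110 called peaks, 29.8 per 100 protein-coding genes. The 31 bins poorest in piRNA genes held 3703 and 168 called peaks, 29.4 per 100 protein-coding genes. Nearly all of the rich bins are in the right cluster and most of the poor ones in the left. This split therefore largely repeats the contrast between the clusters.

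**Figure D2:**
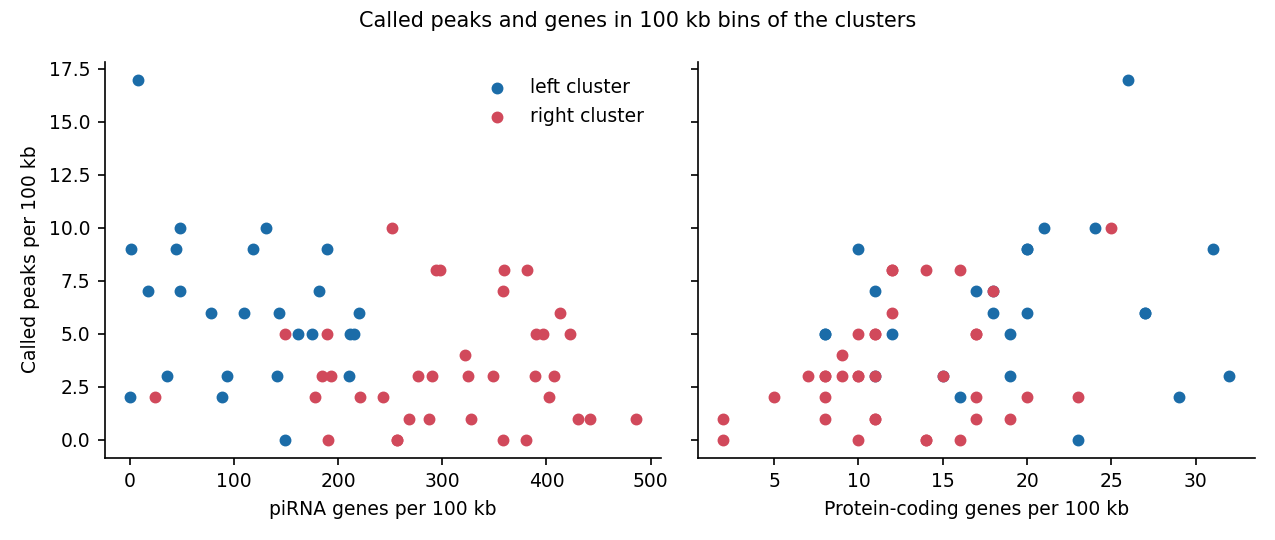
Called peaks per 100 kb bin (vertical axis) against piRNA genes per bin and against protein-coding genes per bin; each point is a bin of the left cluster (25 bins) or the right cluster (37 bins). The left-cluster bin with 17 called peaks has few piRNA genes, and the bins with the most piRNA genes are all in the right cluster.

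Most called summits lay away from piRNA genes. The distance from a called summit to the nearest piRNA gene start ran from 3 bp to 83206 bp with a median of 557.5 bp (quartiles 137 and 3022.5 bp). Within 50 bp of a start lay 19 of the 278 summits (6.83%), within 100 bp 52 (18.7%), within 200 bp 92 (33.1%) and within 500 bp 129 (46.4%), while 122 (43.9%) were more than 1000 bp away. Of all bases of the clusters, 16.8% lie within 50 bp of a piRNA start, 29.8% within 100 bp, 45.4% within 200 bp and 61.9% within 500 bp, so the called summits were below the level of the sequence itself at each of these distances.

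The 7115 ranked peaks of the same clusters that missed the threshold lay closer, with a median of 176 bp, and 53.8% of their summits were within 200 bp of a piRNA start. The share of called summits within 200 bp differed by −20.7 percentage points (33.1%, 92 of 278, against 53.8%, 3829 of 7115; two-sided Fisher's exact test, Benjamini-Hochberg adjusted p = 3.8e-11 over 8 position tests). The direction was the same in each cluster. In the left cluster 22.1% of called summits (34 of 154) lay within 200 bp, against 34.8% of those below the threshold (adjusted p = 0.000934 over the clusters, exact test). In the right cluster 46.8% of called summits (58 of 124) did, against 72.4% of those below it (adjusted p = 1.17e-08, exact test). The corresponding shares of all bases are 29.1% in the left cluster and 56.4% in the right. Peaks are sites of the same 2 samples and not independent replicates, so these p-values describe how the sites fall.

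**Figure D3:**
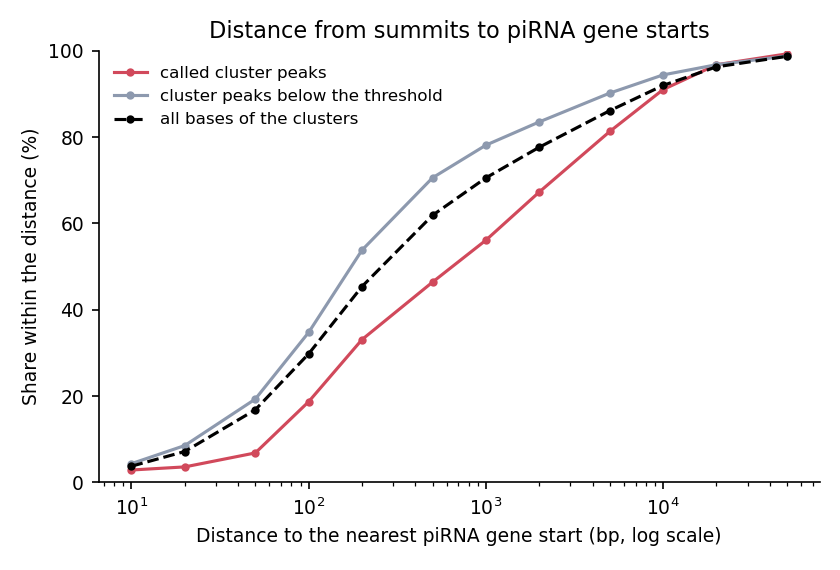
Cumulative share of summits (percent) within a distance (bp, log scale) of the nearest piRNA gene start, for called cluster peaks, for cluster peaks below the threshold and for all bases of the clusters. At 200 bp the shares are 33.1%, 53.8% and 45.4%, and the curves meet beyond 10 kb.

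Base composition moved with this difference. The median GC content of the 201 bases around a summit was 38.1% for called cluster peaks, against 31.3% for cluster peaks below the threshold and 31.8% for all bases of the clusters. Called peaks on the rest of chromosome IV had 38.3%. Where the GC content was under 30%, 73.2% of called summits (30 of 41) lay within 200 bp of a piRNA start, against 74.9% of those below the threshold. Between 35% and 40% GC the shares were 33.8% of called summits (24 of 71) and 33.6% of those below the threshold. At 40% or more they were 16.7% of called summits (18 of 108) and 19.7% of those below it. Between 30% and 35% they were 34.5% of called summits (20 of 58) and 49.9% of those below it. The widest of these differences, −15.4 points between 30% and 35% GC, had an adjusted p of 0.0924 (exact test), and none of the 4 passed. The bands were chosen after the data were seen and hold 41 to 108 called summits each, so a missed threshold there does not show that the shares are alike.

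The difference between called and weaker summits varied by annotation class. It was wide in promoter windows and outside protein-coding genes, narrower in introns and of the other sign in exons. Summits in protein-coding promoter windows, which reach 1000 bp before and 200 bp past each transcript start, were near a piRNA start in 18.1% of 83 called peaks, against 38.6% of those below the threshold. In introns the shares were 50% of 52 called summits against 60.6%, and in exons 32.2% of 59 against 30.5%. Outside protein-coding genes and promoter windows they were 45.8% of 59 against 69.3%. Each summit is counted here in 1 class only, small RNA genes first, and the part that class or GC content has in the overall difference was not tested.

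**Figure D4:**
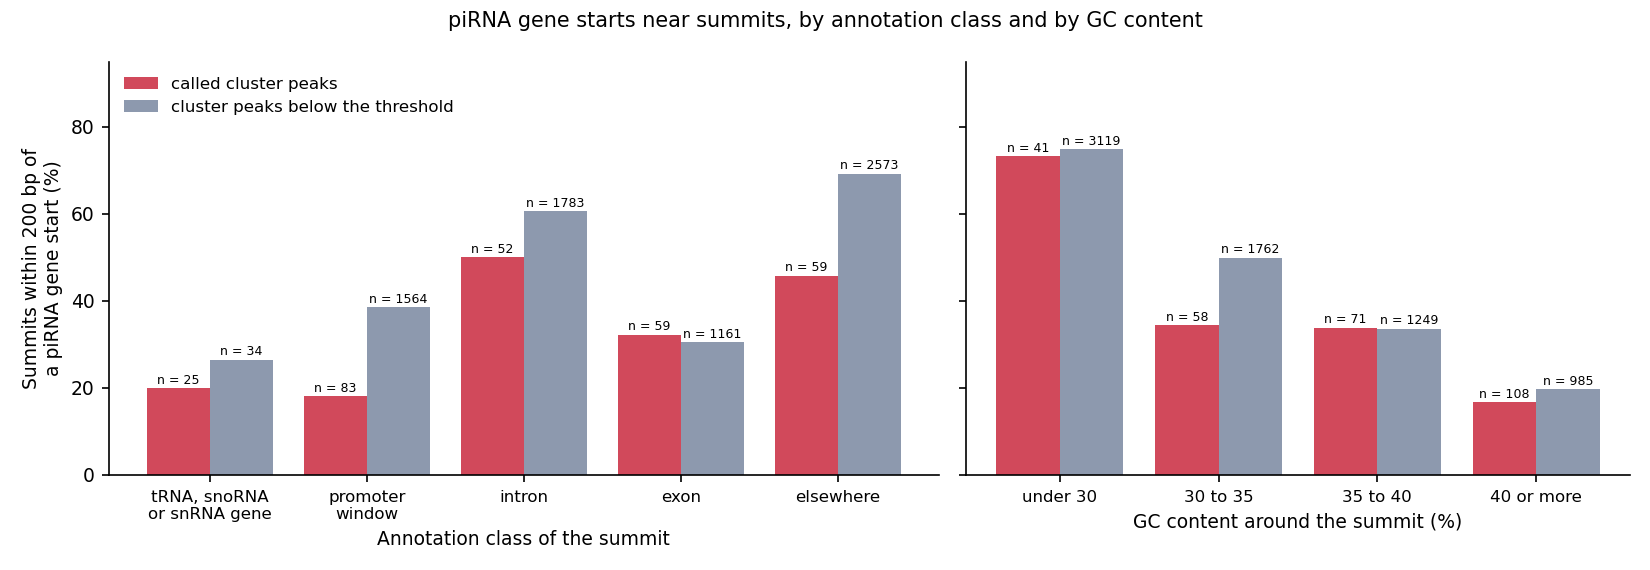
Percent of summits within 200 bp of a piRNA gene start among called cluster peaks and cluster peaks below the threshold, by annotation class (left panel) and by GC content of the 201 bases around the summit (right panel); n is the number of summits. Between called peaks and those below the threshold, the bars are 34.5% and 49.9% at 30 to 35% GC, 73.2% and 74.9% under 30%, 33.8% and 33.6% at 35 to 40%, and 16.7% and 19.7% at 40% or more.

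Seen from the genes, 156 of the 14204 piRNA genes of the clusters (1.10%) had a called summit within 200 bp, 48 in the left cluster (1.70%) and 108 in the right (0.948%), against 8 of 510 (1.57%) on the rest of chromosome IV. A ranked peak of any strength lay that close to 48.0% of the cluster genes. Genes with the motif core upstream had a called summit within 200 bp in 1.01% of cases (50 of 4932), against 1.14% of those without it (106 of 9272). Neighbouring piRNA genes share peaks, so these are counts and were not tested.

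The motif core was rarer at called cluster peaks than at weaker cluster peaks or in all windows of the clusters. It lay within 100 bp of the summit, on either strand, in 19 of the 278 called cluster peaks (6.83%), against 16.7% of the cluster peaks below the threshold (1191 of 7115; adjusted p = 5.39e-06, Fisher's exact test) and 14.6% of all 201-base windows of the clusters. On the rest of chromosome IV the core lay at 11 of 662 called peaks (1.66%) and in 1.55% of all such windows. The clusters were chosen as regions rich in piRNA genes, so the contrast with the rest is not independent of that choice and is given as a description. Median GC content was 38.1% at called cluster peaks, against 31.3% at those below the threshold, and its part in the motif contrast was not tested. Of the 19 called peaks with the core, 16 were among those within 200 bp of a piRNA start. With replicate 1 alone, calling peaks by that replicate's own list, the contrast with the peaks below the threshold was −8.99 points and missed the threshold (adjusted p = 0.0558, exact test).

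The 92 called summits within 200 bp of a piRNA start were no stronger in the middle of their range than the other 186, with a median signal of 85.0 against 84.2 in the authors' units, but their top was lower. Their highest signal was 188, against 543 among the farther summits. An IDR value of 2 or more was reached by 6 of the 92 (6.52%), against 46 of the 186 (24.7%). Median GC content was 33.3% in the near group, against 39.6% in the far one. Relative to the direction of transcription, 53 of the 92 summits lay downstream of the piRNA gene's first base and 39 upstream, and 5 lay inside the 21-base gene. With fragments of 200 to 800 bp, such small offsets are not well resolved. Signal and IDR value helped to choose all 278 peaks, so these levels are descriptions.

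The 6 called summits closest to a piRNA start, the last 2 tied at 6 bp, had modest signals, and 4 of them were in the right cluster. The peak at 21ur-4716 (IV:16016760-16017139) had its summit 3 bp from the first base of the piRNA gene, in an intron of jac-1, which encodes a catenin of cell junctions. Its pooled signal was 66.2, with 48.4 in replicate 1 and 32.7 in replicate 2. The peak at 21ur-5916 (IV:17197591-17197970) had its summit at 4 bp and a signal of 92.9, with 44.1 in replicate 1 and 44.0 in replicate 2. It is also the last called peak inside the right cluster's edge.
The peak at 21ur-3654 (IV:17048957-17049336) lay 4 bp from the start, in the promoter window of athp-3, with a signal of 90.2 and 42.9 and 37.2 in replicates 1 and 2. The peak at 21ur-1623 (IV:14893485-14893864), in an intron of the actin regulator gene eps-8, lay at 5 bp with a signal of 74.4, and 52.3 and 30.5 in replicates 1 and 2. The peak at 21ur-11742 (IV:5625313-5625692), in an exon of the chemoreceptor gene srsx-14, lay at 6 bp with 90.3, and 37.6 and 45.5 in replicates 1 and 2. The peak at 21ur-2895 (IV:5839659-5840038), in an intron of C06E7.2, also lay at 6 bp, with a signal of 71.2, and 46.5 and 32.2 in replicates 1 and 2. None of these 6 summits stood in a peak that passed an IDR of 0.01 in either replicate's own list. All 6 signals lie below or within the middle range of the cluster peaks, whose quartiles are 74.2 and 95.2.

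The strongest sites of the left cluster lay together within IV:4725445-4750177, away from piRNA genes. The peak with signal 543 (IV:4727959-4728141) had 284 in replicate 1 and 253 in replicate 2, and its summit was 71 bp from the pseudogene WBGene00023323 and 1694 bp from the nearest piRNA start, 21ur-15541. The next (IV:4749963-4750177) had 539, with 234 in replicate 1 and 305 in replicate 2, and lay 17662 bp from the nearest piRNA start. It stands between the divergent genes Y17G9B.5 and rpl-20, 178 bp and 284 bp upstream of their starts, and rpl-20 encodes a protein of the large ribosomal subunit.
The third (IV:4725445-4725824) had 409, with 229 and 189 in replicates 1 and 2, 181 bp from the noncoding RNA gene WBGene00195021. These 3 peaks stood apart from all others of the clusters in both replicates, whose remaining peaks had at most 125.5 in replicate 1 and 118 in replicate 2.
Another (IV:4748713-4749092) lay 109 bp inside cyc-2.1, a cytochrome c gene, with a signal of 194, and 88.6 and 96.8 in replicates 1 and 2. The next, at the tRNA gene WBGene00022903 (IV:5967021-5967400, sequence above), had a signal of 188, with 94.8 in replicate 1 and 96.6 in replicate 2. Its summit was 122 bp from the piRNA gene 21ur-5229.

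In the right cluster, tRNA genes carried 3 of the 5 strongest peaks. The highest (IV:14838184-14838563) lay in an intron of Y57G11C.22, 355 bp from a piRNA start, with a signal of 225, and 116 and 99.6 in replicates 1 and 2. The peak at the tRNA gene WBGene00014597 (IV:16399007-16399386), inside an intron of Y65A5A.1, had 222, with 125.5 in replicate 1 and 109 in replicate 2. A peak over cel-mir-52 (IV:14033819-14034198), a microRNA gene, had 192, with 89.7 in replicate 1 and 118 in replicate 2.
The peak at the tRNA gene WBGene00014305 (IV:14224965-14225344) had 187, with 94.7 and 96.6 in replicates 1 and 2, and lay 187 bp from a piRNA start. The peak 35 bp from the tRNA gene WBGene00014560 (IV:16389127-16389506) had 186, with 100.1 in replicate 1 and 84.5 in replicate 2. All of these 5 right-cluster peaks passed an IDR of 0.01 in each replicate's own list.

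Called cluster peaks lay at tRNA, snoRNA or snRNA genes more often than other called peaks of the chromosome, mainly in the right cluster. Within 200 bp of such a gene were 25 of the 278 (8.99%), against 28 of 662 on the rest of chromosome IV (4.23%; adjusted p = 0.00694, Fisher's exact test). Against the cluster peaks below the threshold the contrast was wider, 8.99% against 0.478% (34 of 7115; adjusted p = 6.35e-20, exact test). Of all bases, 0.598% lie that close to such a gene in the clusters and 0.417% on the rest. The first contrast missed the threshold with the other ranked list of both replicates (8.01%, adjusted p = 0.0524) and with the cluster edges moved outward by 250 kb (7.80%, adjusted p = 0.0521, exact tests).
tRNA genes, which supply the adaptors of translation and are read by RNA polymerase III, made up most of these sites. A called summit lay within 200 bp of a tRNA gene 20 times (7.19%), 4 in the left cluster and 16 in the right, against 8 on the rest (1.21%). A pair of the 20 summits lay at the same gene, WBGene00014602. The annotation holds 41 tRNA genes in the clusters, 9 in the left and 32 in the right, against 30 on the rest, so the number of genes moves with this count. The other small RNA sites in the clusters were 3 at snoRNA genes (1.08%) and 2 at snRNA genes (0.719%). On the rest there were 15 (2.27%) and 5 (0.755%), so neither of these types was more frequent in the clusters.
The 25 small RNA sites had a median signal of 133, against 84.2 for the promoter-window peaks, 82.1 for introns, 82.7 for exons and 82.2 elsewhere. Of the 25, 19 reached an IDR value of 2 or more, so these sites made up 19 of the 52 cluster peaks at that threshold. Of the 25, 5 (20%) were within 200 bp of a piRNA start.

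Promoter windows of protein-coding genes held 89 of the 278 called summits (32.0%), against 246 of 662 on the rest of chromosome IV (37.2%). This difference did not pass (−5.15 percentage points, adjusted p = 0.156, Fisher's exact test). It did pass in the same direction at an IDR value of 2 or more (−23.3 points, adjusted p = 0.0229), with the other ranked list (−7.51 points, adjusted p = 0.0431) and with the edges moved inward by 250 kb (−8.33 points, adjusted p = 0.0284, exact tests). Promoter windows cover 21.5% of all bases in the clusters and 28.4% on the rest, and this contrast does not allow for that. Against the cluster peaks below the threshold, of which 22.1% lay in promoter windows, the share was 9.88 points higher (adjusted p = 0.000374, exact test). This call was lost at an IDR value of 2 or more (6.38 points, adjusted p = 0.316) and without replicate 1 (9.40 points, adjusted p = 0.106, exact tests). Introns outside promoter windows held 61 called summits (21.9%), against 18.3% on the rest, a difference that did not pass (adjusted p = 0.206, exact test). Such introns cover 23.9% of all bases in the clusters and 27.3% on the rest.
The promoter windows with a called cluster summit belonged to 91 genes, while 941 protein-coding genes start within the clusters. Of all protein-coding genes, 10.4% had a called summit in the window (2072 of 19973), so the cluster genes stood near the background.

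Beyond rpl-20, Y17G9B.5 and cyc-2.1, the strongest promoter-window peaks were at genes of several roles. The peak upstream of a pair of genes of clone Y105C5A (IV:15646495-15646874) had a signal of 185, with 83.9 in replicate 1 and 90.5 in replicate 2. That upstream of the F-box gene fbxa-83 had 158, with 91.0 and 59.5 in replicates 1 and 2, and its summit was 63 bp from the snoRNA gene Y67A10A.14. The peak 156 bp upstream of W03F8.4 had 143, with 83.1 in replicate 1 and 64.7 in replicate 2.
A single peak 228 bp upstream of iscu-1, which encodes the scaffold for iron-sulfur cluster assembly, also lay in the window of lact-9, with a signal of 142, and 75.2 and 59.9 in replicates 1 and 2. The peak in the window of Y43D4A.5 had 133 and stood 7 bp from the tRNA gene WBGene00014572, so the window and the tRNA gene cannot be told apart. The peak in the windows of ipla-6, a phospholipase gene, and mif-4, a gene of the macrophage migration inhibitory factor family, also had 133. Its replicates differed most among the named peaks, with 97.8 in replicate 1 and 31.4 in replicate 2, and its IDR value was 1.08.
Some further sites were picked after their values were seen, for what the genes are known to do. pkd-2, a polycystin channel gene of male sensory neurons, held an exon peak of signal 140, with 64.9 and 64.8 in replicates 1 and 2. lag-1, the transcription factor of Notch signalling, held an exon peak of 137, with 79.4 in replicate 1 and 54.7 in replicate 2. tctn-1, a gene of the ciliary transition zone, had a summit in its promoter window with 96.7, and 50.1 and 40.2 in replicates 1 and 2.

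The X-box consensus, the promoter element known for RFX factors, was found within 100 bp of 3 of the 278 called cluster summits (1.08%, Wilson 0.368 to 3.12), against 14 of 662 on the rest (2.11%, 1.26 to 3.52). Of all 201-base windows of the clusters, 2.07% hold it. The intervals overlap, and the counts were not tested. None of the 3 summits lay in a protein-coding promoter window.

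The genes that make piRNAs work were looked at too, since most lie outside the clusters. Of 44 genes listed, 42 were found by symbol, and 5 of these (11.9%) had a called summit in the promoter window, against 10.4% of all protein-coding genes (2072 of 19973), so the list stood near the background. None of the 7 transcription factors and cofactors found had one, snpc-4 and prde-1 among them, which act on the Ruby motif. None of the 10 processing genes had one. Of 11 Argonaute and P granule genes, prg-1 among them, pgl-1 had one.
pgl-1, which encodes a core protein of germline P granules, is itself in the left cluster. Its peak (IV:6977494-6977873) lay 366 bp upstream with a signal of 104, and 64.7 and 39.2 in replicates 1 and 2. The same summit lies 158 bp inside him-3, a gene of meiotic chromosome axes, and in its promoter window, so the 2 genes cannot be told apart. It is the last called peak inside that cluster's edge, and a second called peak with signal 124 lay in a pgl-1 exon. Of 14 genes of small RNA amplification and nuclear silencing, 4 had a called summit. nrde-2, of nuclear RNA interference, had 183, with 86.5 in replicate 1 and 100.5 in replicate 2. mut-15, of the mutator complex, had 133, with 88.3 and 50.2 in replicates 1 and 2. ekl-1 had 114, with 50.6 and 64.1 in replicates 1 and 2, and the helicase gene rde-12 had 106, with 68.5 and 33.2. The summits of nrde-2, mut-15 and ekl-1 also lie in the promoter windows of atad-3, fib-1 and prpf-4, one neighbour each, so the gene behind those peaks cannot be told either.

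The replicates gave similar levels at most cluster peaks but not the same order. In 247 of the 278, both replicates' own ranked lists held a peak over the summit, in 19 replicate 1 alone, in 7 replicate 2 alone and in 5 neither. Signals ran from 34.2 to 284 in replicate 1 (median 46.5) and from 30.3 to 305 in replicate 2 (median 40.9). The ratio of replicate 1 to replicate 2 had a median of 1.14 (quartiles 0.955 and 1.32), and replicate 1 was the higher at 170 of the 247. Spearman's rho between the replicates was 0.262 over these 247 peaks, 0.178 in the left cluster and 0.363 in the right, against 0.0884 on the rest. It is a description of peaks that both replicates helped to choose. A peak that passed an IDR of 0.01 in a replicate's own list overlapped 19 called cluster peaks for replicate 1 and 26 for replicate 2. Overlap with any part of the called peak was counted here, not only with its summit. Both replicates had one at 12 called cluster peaks (4.32%), against 23 of 662 on the rest (3.47%), and 245 of the 278 had one in neither.

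**Figure D5:**
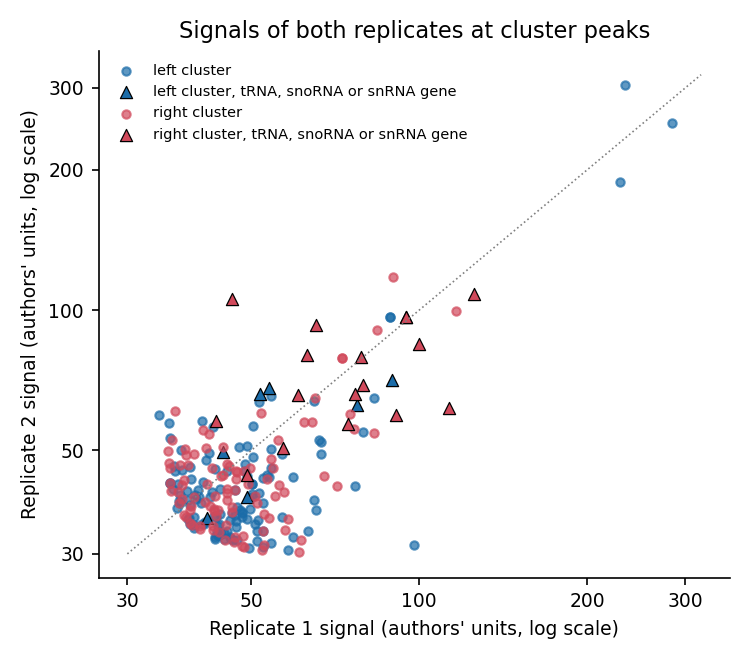
Signal of each replicate's own ranked peak at the 247 cluster peaks that both replicates rank (log axes, authors' units); triangles mark summits within 200 bp of a tRNA, snoRNA or snRNA gene, and the dotted line is equality. The 3 strongest left-cluster peaks stand at 189 to 305 in both replicates, while most points lie near the medians of 46.5 and 40.9.

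The pooled signal had the same middle in all regions. Its median was 82.3 in the left cluster (quartiles 73.7 and 94.5) and 87.1 in the right (75.8 and 98.1), against 85.0 on the rest (75.1 and 95.7). The lowest signals belonged to shoulders: 20 called cluster peaks had a signal below 40, and 18 of these overlapped a stronger called cluster peak. Merging overlapping peaks left 255, 139 in the left cluster and 116 in the right. Over all 7393 ranked peaks of the clusters, sorted by signal into 10 equal groups, the share of summits within 200 bp of a piRNA start was 51.2% in the weakest group and 57.8% at its highest, in the middle of the order. It was 48.4% in the group below the strongest and 41.8% in the strongest, which holds 245 of the 278 called peaks. Median GC content was 30.1% in the weakest of these groups and 35.3% in the strongest.

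Close to the thresholds, the called peak with the lowest IDR value has its summit at IV 5995700 (value 1.002, signal 69.9), and the highest value left out is at IV 15269678 (0.999, signal 60.7). At the cluster edges, the left cluster begins with the called summit at 4547098 (signal 66.1), with 4487593 (69.2) the nearest outside. It ends with 6977684 (104), with 7000983 (81.2) outside. The right cluster begins with 13568654 (66.2), with 13389853 (96.2) outside, and ends with 17197781 (92.9), with 17245561 (87.2) outside.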

How the data were processed

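Anti-GFP chromatin immunoprecipitation was sequenced from 2 replicates of whole larvae, which the labels call biological without saying how the cultures were grown. The authors deposited peak lists on ce11, namely for each replicate and for both together a ranked list and a thresholded list. Which aligner, peak caller and normalization were used is not given in the sources used here, nor is the depth, and a control named in the labels was not analysed here. The signal of each peak is the authors' own, with its scaling not stated, and was used for description and ranking. The deposited −log10 IDR score measures recurrence between replicates. The conservative thresholded list has 996 peaks, identical to those ranked at 2 or above. In the 4 ranked lists, 32 unnamed columns were not used.

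Each replicate's signal comes from its own ranks (112641 and 110961 peaks), taking the strongest peak over a summit. Genes are from Ensembl release 115 and sequences from the RefSeq copy of WBcel235. A summit was near a piRNA gene if within 200 bp of its first base. The Ruby core and the X-box consensus RTHNYYWTRRNRAC were searched on both strands within 100 bp of summits. Fisher's exact test (two-sided) compared shares, and p-values were Benjamini-Hochberg adjusted over 8 tests, with a threshold of 0.05. Named items were the 5 strongest merged peaks per cluster, the 5 summits closest to a piRNA start with ties, the 12 genes with the strongest promoter-window peaks, pathway genes with a called summit and the peaks at the thresholds, plus pkd-2, lag-1 and tctn-1, picked after their values were seen. The peaks, gene lists and tests were chosen with earlier results of these data known. Alternatives were the other lists, each replicate alone, shifted edges, other windows and GC bands. The scripts were tested on simulated data and ran on scipy 1.17.1, pandas 2.3.3, numpy 2.4.6 and matplotlib 3.10.9 under Python 3.11.15.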

Additional observations from a re-analysis of the deposited data

How the results depend on the processing

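The lower share of called than of weaker cluster peaks near piRNA starts stayed past the threshold in all 10 alternatives of list, edge, window and replicate (−41.8 to −16.1 percentage points). In the bands of GC content, chosen after seeing the data, it was −1.73 points under 30%, −15.4 at 30 to 35%, 0.176 at 35 to 40% and −3.03 at 40% or more, and passed in none. The excess at small RNA genes over weaker cluster peaks held in all 10 (7.32 to 36.0 points). The 10 include both an IDR value of 2 or more and the conservative list, which hold the same peaks and are not separate checks. The excess over the rest of chromosome IV was 3.39 points with the other ranked list and 3.43 with edges moved outward, missing the threshold in both, and 11.9 to 17.1 with 1 replicate left out.

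At an IDR value of 2 or more, and in the identical conservative list, there were 52 cluster peaks and the density ratio was 1.03 (0.731 to 0.833 in the other 6 alternatives). The promoter-window difference there was −23.3 points from the rest, which passed, and 6.38 from weaker peaks, which did not. The motif core difference from the rest, a description only, was 2.76 points. The promoter difference from the rest also passed with the other ranked list (−7.51) and with edges moved inward (−8.33). At the main edges, promoter windows cover 21.5% of cluster bases against 28.4% on the rest, which these differences do not allow for.

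With 1 replicate left out there were 71 to 73 cluster peaks. The promoter difference from weaker peaks was then 9.40 to 17.5 points, missing without replicate 1 (adjusted p = 0.106, exact test). The motif core difference was −1.60 to 6.55 from the rest and −14.8 to −8.99 from weaker peaks, and the intron difference was −0.784 to 6.67. Fewer peaks are called from 1 replicate, and its IDR value is a different measure. The cause of these changes was not tested. No paired analysis was possible because the study has 1 group. Depth is unknown, and the 52 strict peaks limit small differences.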
